A study of Ictalurus punctatus with 54 samples.

Results

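A set of 45 gill transcripts, 0.329% of the 13672 that passed a count filter, set apart the channel catfish of the 2 copper sulfate schedules at 24 h after bacterial challenge. Of these, 14 (0.102%) were higher in fish challenged 24 h after copper (Cu24_Fcol_24h) and 31 (0.227%) were higher in fish challenged directly after copper (Cu0_Fcol_24h). They were chosen from the levels in those 2 groups alone, on 3 conditions. The values of the 6 and the 6 fish did not overlap, the mean CPM (read counts scaled to library size by TMM) plus 1, called M below, differed at least 2 times between the groups, and the larger M was at least 11. The levels at 24 h are therefore a description and carry no test, while the fish of the other 7 groups entered only the count filter and the scaling.

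The gill is the main surface across which a fish exchanges gas, ions and nitrogenous waste, and it is in direct contact with both waterborne metals and waterborne bacteria. Columnaris disease is a bacterial infection of skin and gill in which the bacteria attach to and erode the gill epithelium. Copper sulfate is used in ponds against algae and parasites, and at high levels copper injures the gill epithelium and disturbs the uptake of ions. The sampling plan allowed copper-exposed fish with and without a holding period to be compared after the same challenge.

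Gill from individual Ictalurus punctatus averaging 7.3 g was sequenced as polyadenylated RNA, with 6 fish in each of 9 groups. Fish of the Cu24 schedule received copper sulfate, were held for 24 h and were then sampled without challenge (Cu24) or challenged and sampled 1 h, 4 h or 24 h later (Cu24_Fcol_1h, Cu24_Fcol_4h and Cu24_Fcol_24h). Fish of the Cu0 schedule received the same copper and were sampled at once (Cu0) or challenged at once and sampled 1 h, 4 h or 24 h later (Cu0_Fcol_1h, Cu0_Fcol_4h and Cu0_Fcol_24h). Control fish were taken before copper or bacteria. The labels give the dose as 2.1 mg/mL and the bacterium as Flavobacterium columnare, while the study's methods give the dose per litre and name Flavobacterium covae. At 24 h after challenge the Cu24 schedule was 48 h and the Cu0 schedule 24 h past the addition of copper, so the holding period and the time since copper cannot be told apart. The methods describe the hold both as static and as flow-through recovery, so the length of contact with copper is unclear. Feed was withheld during the treatments. Neither can be told apart from the schedule. Each group was spread over replicate tanks according to the methods. Neither labels nor methods say which tank a fish came from, and p-values measure the spread between these fish. Challenged fish without copper were not analysed here.

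Library totals lay between 352013 and 1190864 effective counts. The number of transcripts expected with a count at the smallest total was 16073 to 17330 in Cu24_Fcol_24h and 13633 to 17468 in Cu0_Fcol_24h, where replicate 6 was the lowest fish and the next was at 16331. Without that fish 42 of the 45 transcripts met the conditions, in a set that grew to 82. Leaving out a fish cannot make separate ranges overlap, so only the conditions on M could be lost. Among unchallenged fish, Cu24 replicates 1 and 3 were at 11347 and 12929 against 17398 to 18856 in the other 4, and Cu0 replicates 5 and 6 were at 17938 and 17922 against 12495 to 13882 in the other 4. Results are given without these fish, and with the number of detected transcripts as a covariate, where that changed them. The files pair no ID with a gene name, and 0 of the 37586 IDs matched the RefSeq gene table used here, so 4 transcripts are given by ID and the others by their place in the order of the ratio of M. The label gill was not checked against marker genes for the same reason.

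At 24 h the ranges of the 2 groups did not overlap for 106 of 13672 transcripts (0.775%), 38 of them higher (0.278%) and 68 lower (0.497%) in Cu24_Fcol_24h. Of these, 56 were left out because M differed less than 2 times and 5 because the larger M was under 11. The smallest ratio inside was 2.008 and the largest outside was 1.988, while the smallest larger M inside was 11.1 and the largest outside was 9.891. The ratio of M had a median of 2.55 among the 14 transcripts higher in Cu24_Fcol_24h and reached 4.36. Among the 31 transcripts higher in Cu0_Fcol_24h the median was 2.80 and the largest was 11.35.

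The gap between the fish was narrow for most members. Taking the lowest fish of the higher group over the highest fish of the lower group, each plus 1 CPM, the median was 1.164 (1.072 to 1.915) for the 14 and 1.236 (1.002 to 2.393) for the 31. The mean of the higher group lay between 17.3 and 230 CPM for the 14, with 4 at 50 CPM or more, and between 10.1 and 215.5 CPM for the 31, with 8 at 50 CPM or more. The median of these means was 41.9 CPM for the 14 and 28.1 CPM for the 31. Over all transcripts the median of the group means was 15.05 CPM in Cu24_Fcol_24h and 15.32 CPM in Cu0_Fcol_24h. The condition on the larger M sets a floor for the members that all transcripts do not have. Summed effective counts over the 54 fish were 244 to 9746 for the 14 and 240 to 10648 for the 31. A count was present in every fish for 6 of the 14 and 8 of the 31.

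**Figure D1:**
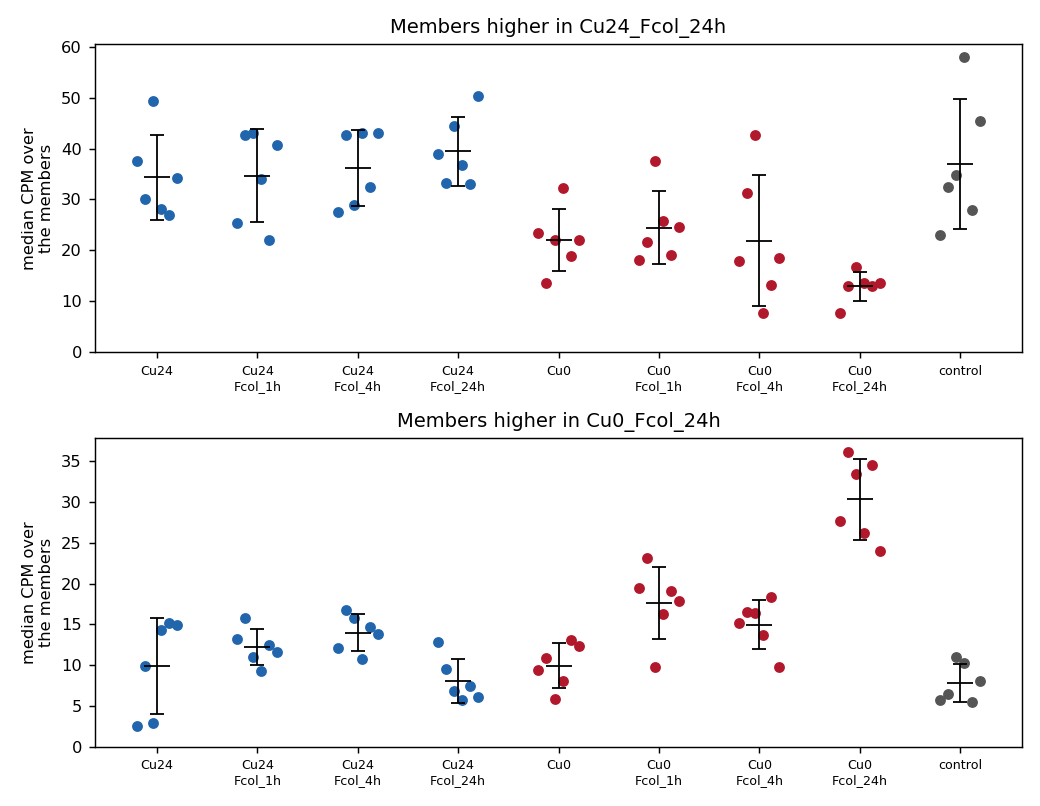
Median CPM over the 14 members higher in Cu24_Fcol_24h (top) and over the 31 members higher in Cu0_Fcol_24h (bottom), with 1 point per fish, 6 fish per group, and the mean ± SD as bars. For the 31 members the Cu0_Fcol_24h fish lay between 23.99 and 36.15 CPM, and for the 14 members they lay between 7.765 and 16.71 CPM.

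For each fish, the median CPM over the 14 members was 33.0 to 50.3 in Cu24_Fcol_24h (39.4 ± 6.77, SD, n = 6) and 7.77 to 16.7 in Cu0_Fcol_24h (13.0 ± 2.89). Control fish were at 23.1 to 58.0 CPM (37.0 ± 12.7). Over the 31 members it was 5.76 to 12.8 in Cu24_Fcol_24h (8.06 ± 2.67), 24.0 to 36.2 in Cu0_Fcol_24h (30.34 ± 4.996) and 5.42 to 11 in control (7.83 ± 2.35). By these medians the Cu24_Fcol_24h fish were within or close to the range of the control fish in both sets. The Cu0_Fcol_24h fish stood outside it. A median over members can hide single members that lie on opposite sides of control. In bulk tissue, fewer cells of a type and less RNA per cell cannot be told apart.

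Taken singly, most members were farther from control in Cu0_Fcol_24h, with exceptions. Of the 31 members, 22 (71%) were farther from control in Cu0_Fcol_24h and 9 in Cu24_Fcol_24h, while over all 13672 transcripts 53.1% were farther in Cu0_Fcol_24h. Of the 14 members, 9 (64.3%) were farther from control in Cu0_Fcol_24h and 5 in Cu24_Fcol_24h. Against control, M moved at least 2 times in Cu0_Fcol_24h alone for 12 of the 31 and 7 of the 14, and in Cu24_Fcol_24h alone for 4 of the 31 and 3 of the 14. It moved to the same side in both groups for 8 of the 31 and 3 of the 14, and in neither group for 6 of the 31 and 1 of the 14. A single member of the 31 moved to opposite sides. Across all transcripts M moved at least 2 times in Cu0_Fcol_24h alone for 11.7%, in Cu24_Fcol_24h alone for 9.33% and to opposite sides for 0.168%. The most frequent of these outcomes were neither group (48.5%) and both groups on the same side (30.3%). The members were chosen for M at least 2 times apart at 24 h, which favours a move in a single group over neither. These shares, and those farther from control, therefore describe the members and are no test.

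The 24 h groups were often the extremes of the series. Among the 31 members, the Cu0_Fcol_24h mean was the highest of the 9 groups in 20 and the Cu24_Fcol_24h mean was the lowest in 12, against 13.2% and 11% of all transcripts. Among the 14 members, Cu0_Fcol_24h was the lowest group in 8 and Cu24_Fcol_24h the highest in 3, against 11.8% and 12.1% of all transcripts. These means took part in the choice, so the counts describe the members only. For no member did the 6 fish of either 24 h group lie beyond all 48 other fish. For 12 of the 31 all Cu0_Fcol_24h fish lay above all control fish, as for 7.74% of all transcripts, and for 2 of the 31 below. For 6 of the 14 all of them lay below, as for 6.95% of all transcripts, and for 0 above. All Cu24_Fcol_24h fish lay above all control fish for 3 of the 31 and 3 of the 14 (7.55% of all transcripts). They all lay below for 3 of the 31 and 2 of the 14 (7.27%).

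**Figure D2:**
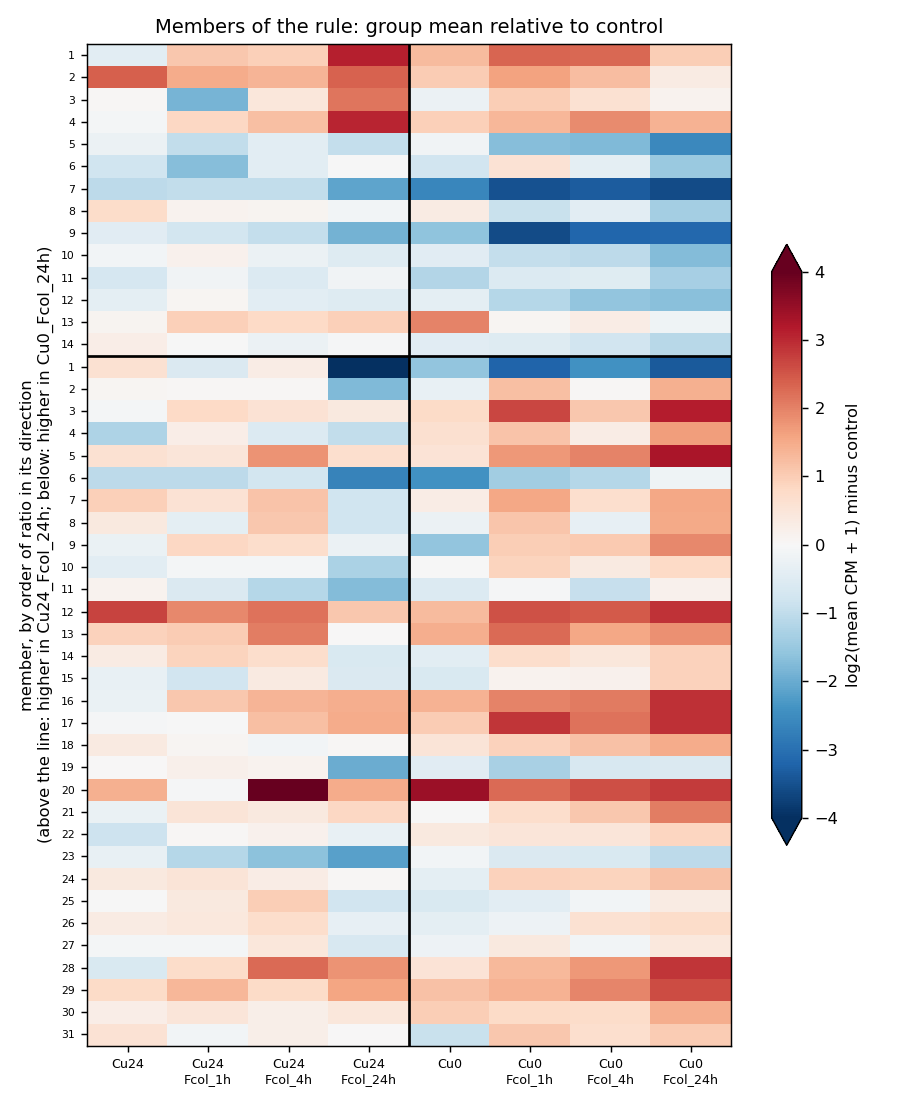
log2 of M in 8 groups minus control for the 45 members, 1 row per member in the order of its 24 h ratio, with the 14 higher in Cu24_Fcol_24h above the line and the 31 higher in Cu0_Fcol_24h below it. Values beyond 4 in either direction share the last colour, and the right-hand column is mostly blue above the line (median -1.33) and mostly red below it (median 1.45).

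Relative to control, the median log2 M of the 31 members was 0.06 in Cu24, 0.26 in Cu24_Fcol_1h, 0.45 in Cu24_Fcol_4h and -0.30 in Cu24_Fcol_24h. In the Cu0 schedule it was -0.02 in Cu0, 0.93 in Cu0_Fcol_1h, 0.68 in Cu0_Fcol_4h and 1.45 in Cu0_Fcol_24h. The median over all transcripts moved by 0.00 to 0.24 in these 8 groups, with the largest shift (0.24) in Cu0_Fcol_1h. The median of the 31 members was therefore near control after copper alone in both schedules, although single members were far from it on either side. At 1 h and 4 h the median of the 31 was above the shift of all transcripts in both schedules. That shift was 0.24 and 0.13 in the Cu0 schedule and 0.05 and 0.12 in the Cu24 schedule. The values at 24 h took part in the choice of the members.

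The 14 members had medians of -0.18 in Cu24, 0.04 in Cu24_Fcol_1h, -0.24 in Cu24_Fcol_4h and -0.09 in Cu24_Fcol_24h. In the Cu0 schedule the medians were -0.31 in Cu0, -0.53 in Cu0_Fcol_1h, -0.45 in Cu0_Fcol_4h and -1.33 in Cu0_Fcol_24h. The Cu24 schedule thus stayed within 0.24 of control at the median. The Cu0 schedule was below control in Cu0, Cu0_Fcol_1h and Cu0_Fcol_4h, while the values at 24 h took part in the choice.

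The fish sampled earlier entered the choice of the members only through the count filter and the scaling. In unchallenged fish, the difference in log2 M between Cu24 and Cu0 had a median of 0.31 over the 14 members, 0.11 over the 31 and 0.08 over all transcripts. At 1 h the medians of Cu24_Fcol_1h minus Cu0_Fcol_1h were 0.62 for the 14 and -0.57 for the 31, against -0.12 over all transcripts. At 4 h those of Cu24_Fcol_4h minus Cu0_Fcol_4h were 0.51 and -0.22, against 0.00 over all transcripts. Of the 31 members, 14 were lower in the Cu24 schedule without challenge, 25 at 1 h and 18 at 4 h. Over all transcripts 45.11%, 55.78% and 50.17% were lower, in the same order. Of the 14 members, 9 were higher in the Cu24 schedule without challenge, 9 at 1 h and 9 at 4 h, though not the same 9, where 54.87%, 44.2% and 49.82% of all transcripts were higher.

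The direction at 24 h was held at all 3 earlier samplings by 6 of the 14 members (42.9%) and 11 of the 31 (35.5%), and by 22.1% of all transcripts. It was held at none of them by 3 of the 14 and 6 of the 31, and by 1870 of all 13672 transcripts. The ranges of the fish were apart for few members. No member was apart without challenge (0.578% of all transcripts), 4 were apart at 1 h (5.14%), and 2 were apart at 4 h (3.47%). At 1 h, 2 of the 4 were higher (2.68%) and 2 lower (2.46%) in Cu24_Fcol_1h, and 1 of each pair was on the side it took at 24 h. The 2 at 4 h were both higher in Cu24_Fcol_4h (1.62% of all transcripts higher, 1.84% lower), as at 24 h.

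**Figure D3:**
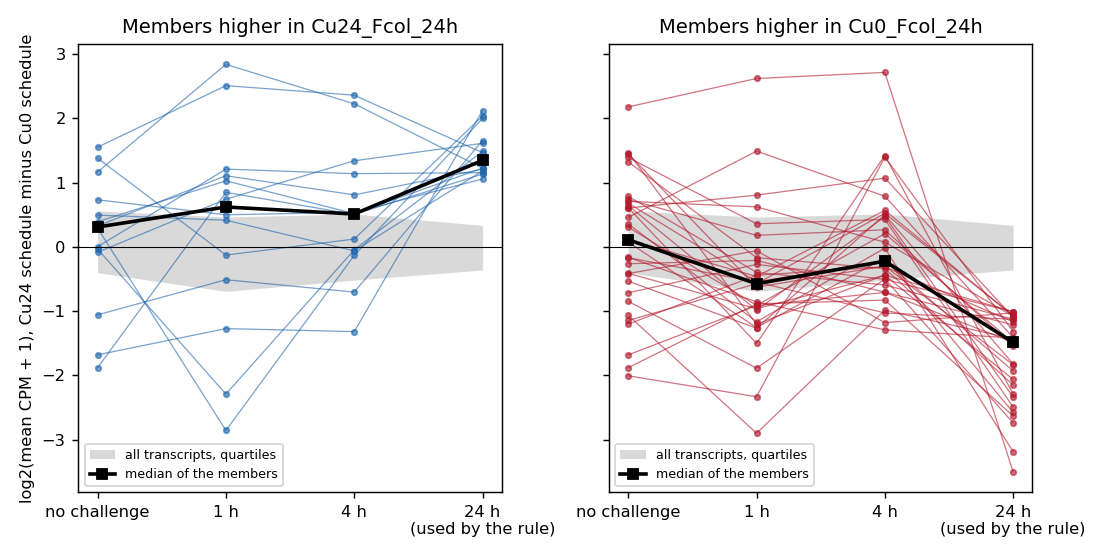
Difference in log2 M between the Cu24 and the Cu0 schedule for each member without challenge and at the 3 times after it, for the 14 members higher in Cu24_Fcol_24h (left) and the 31 higher in Cu0_Fcol_24h (right). The black line is the median of the members (0.31, 0.62, 0.51 and 1.35 on the left, 0.11, -0.57, -0.22 and -1.49 on the right), the grey band spans the quartiles of all transcripts, and the 24 h values are those that chose the members.

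The 5 comparisons that leave out both 24 h groups were tested with edgeR's quasi-likelihood test over all transcripts, with DEGs called at a Benjamini-Hochberg FDR below 0.05 and an absolute log2 fold change above 1. Between 18 and 28 of the 45 members passed the count filter of a comparison, 17 passed in all 5 and 15 in none. A transcript could pass through the group in which it was high, so counts of calls among those tested describe them and are no evidence about the members as a set. At 1 h between the schedules 10 of 28 tested members were DEGs, with 14.4% called over all transcripts tested. Of these 10, 5 were higher (6.95%) and 5 lower (7.5%) in Cu24_Fcol_1h. With the number of detected transcripts as a covariate, 3 members were called, all 3 among the 10, and 1.02% of all transcripts. That number was 14871 to 16399 in Cu24_Fcol_1h and 16362 to 17284 in Cu0_Fcol_1h. It can therefore hardly be told apart from the schedule in this fit, which holds for every covariate result at 1 h below. At 4 h 6 of 25 tested members were DEGs, all 6 higher in Cu24_Fcol_4h (8.1% called over all transcripts, 4.18% higher and 3.91% lower). The 4 h calls held 4 members higher and 2 members lower in Cu24_Fcol_24h.

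Without challenge there were few calls. In Cu24 against Cu0, 0 of 25 tested members were DEGs by edgeR (0.201% called over all transcripts) and 0 by DESeq2 (0.804%). An unadjusted edgeR p below 0.05 was found for 5 of the 25, and for 9.64% of all transcripts tested. In Cu24 against control, 0 of 22 were DEGs by edgeR (0.27%) and 0 by DESeq2 (0.776%). Here 3 of the 22 had an unadjusted edgeR p below 0.05, as had 13.7% of all transcripts tested. In Cu0 against control, 3 of 18 were DEGs (3.14%), 2 higher (1.91%) and 1 lower (1.23%) in Cu0. The last 2 comparisons share the control fish. These counts changed without the unchallenged fish whose numbers of detected transcripts stood apart. Without Cu0 replicates 5 and 6, 6 members were called in Cu24 against Cu0 (12.1% of all transcripts) and 7 in Cu0 against control (13.6%). Without Cu24 replicates 1 and 3, 8 members were called in Cu24 against control (25.6%).

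Transcripts given by ID were followed through all 54 fish, as the 2 largest ratios in each direction among members with a mean of at least 50 CPM in the higher group. ENSIPUT00000000694, higher in Cu24_Fcol_24h, had a lowest, median and highest level of 94.5, 172.6 and 269 CPM in Cu24_Fcol_24h and 28.8, 62.6 and 80.0 CPM in Cu0_Fcol_24h. Control fish were at 240.3, 339.1 and 469.2 CPM, above every Cu0_Fcol_24h fish and overlapping Cu24_Fcol_24h. Its means ran 297, 178, 263 and 180 CPM through Cu24, Cu24_Fcol_1h, Cu24_Fcol_4h and Cu24_Fcol_24h, and 315, 106, 103 and 58.3 CPM through Cu0, Cu0_Fcol_1h, Cu0_Fcol_4h and Cu0_Fcol_24h. All of these means were below that of control (351 CPM). Cu0 fish, at 186.6 to 583.4 CPM, overlapped control. In Cu24 the overlap came from replicates 1 and 3, at 558.4 and 588 CPM, which had few detected transcripts. Cu24 replicates 2, 4, 5 and 6, at 164.9, 201.3, 77.9 and 192 CPM, were below every control fish. Without replicates 1 and 3 the transcript was a DEG in Cu24 against control, as given in the closing section.

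At 4 h ENSIPUT00000000694 was at 56.8, 272.7 and 409.9 CPM (lowest, median, highest) in Cu24_Fcol_4h and at 47.4, 92.2 and 174.8 CPM in Cu0_Fcol_4h. The ranges overlapped because 1 fish of Cu24_Fcol_4h was low. It was a DEG with a log2 fold change of 1.31 (SE 0.38, edgeR FDR 0.0328). That call was lost without any 1 of Cu24_Fcol_4h replicates 1, 4, 5 and 6 and Cu0_Fcol_4h replicates 1, 2, 4 and 6, with log2 fold changes of 1.16 to 1.53 over the 12 omissions and an FDR of up to 0.0833. The call at 4 h was also lost with edgeR's older quasi-likelihood method. At 1 h the log2 fold change was 0.74 (SE 0.38, edgeR FDR 0.179).

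ENSIPUT00000026678, also higher in Cu24_Fcol_24h, was at 176, 185.2 and 404.3 CPM in Cu24_Fcol_24h and at 0, 116.4 and 160 CPM in Cu0_Fcol_24h (lowest, median, highest). It was variable in most groups, with 42.2 to 682.4 CPM in control and 114 to 875 CPM in Cu24. In each of the 3 challenged groups of the Cu0 schedule 1 fish was at 0, and no fish of the other 6 groups was. The tested differences between the schedules were 1.03 at 1 h (SE 0.80, edgeR FDR 0.394) and 0.49 at 4 h (SE 0.48, edgeR FDR 0.541), and neither was a DEG.

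ENSIPUT00000026052, higher in Cu0_Fcol_24h, was at 4.02, 7.54 and 16.0 CPM in Cu24_Fcol_24h and at 20.8, 50.5 and 130.9 CPM in Cu0_Fcol_24h (lowest, median, highest). The means were 5.52, 10.8, 9.36 and 8.03 CPM in Cu24, Cu24_Fcol_1h, Cu24_Fcol_4h and Cu24_Fcol_24h, and 10.7, 42.8, 13.6 and 59.4 CPM in Cu0, Cu0_Fcol_1h, Cu0_Fcol_4h and Cu0_Fcol_24h, with 5.87 ± 4.06 CPM in control (SD, n = 6). Levels above control were thus seen at 1 h and 24 h in the Cu0 schedule and overlapped control at 4 h. At 1 h the fish were at 0, 10.7 and 26.4 CPM in Cu24_Fcol_1h and at 19.5, 46.3 and 60.6 CPM in Cu0_Fcol_1h, which overlapped. The log2 fold change at 1 h was -1.95 (SE 0.47, edgeR FDR 0.0093). The call was lost with the number of detected transcripts as a covariate, where the log2 fold change was -1.36 and the FDR 0.395, and that number itself was 14871 to 16399 in Cu24_Fcol_1h and 16362 to 17284 in Cu0_Fcol_1h. At 4 h the transcript did not pass the count filter.

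ENSIPUT00000007092, also higher in Cu0_Fcol_24h, was at 20.2, 22.3 and 30.9 CPM in Cu24_Fcol_24h and at 54.7, 67.2 and 79.9 CPM in Cu0_Fcol_24h (lowest, median, highest). Control fish were at 3.61, 6.92 and 14.7 CPM, below all fish of both 24 h groups. At 1 h it was at 3.10, 7.12 and 15.7 CPM in Cu24_Fcol_1h and at 37.2, 64.8 and 104.9 CPM in Cu0_Fcol_1h, with no overlap. The log2 fold change at 1 h was -3.07 (SE 0.42, edgeR FDR 0.000268), and the call was kept in all 19 alternative fits. At 4 h the levels were 1.54, 17.4 and 36.8 CPM in Cu24_Fcol_4h and 23.2, 33.3 and 88.7 CPM in Cu0_Fcol_4h, and the log2 fold change of -0.95 (SE 0.45, edgeR FDR 0.188) was not a DEG. Without challenge the means were 17.2 CPM in Cu0 (5.88 to 26.9) and 7.71 CPM in Cu24 (0 to 19.9), against 8.07 CPM in control. Both groups overlapped control, and the Cu0 mean was above it before any challenge. At 1 h every Cu0_Fcol_1h fish was above every control fish. The means of the Cu24 schedule were 7.90 CPM at 1 h, 19.7 CPM at 4 h and 24.4 CPM at 24 h.

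**Figure D4:**
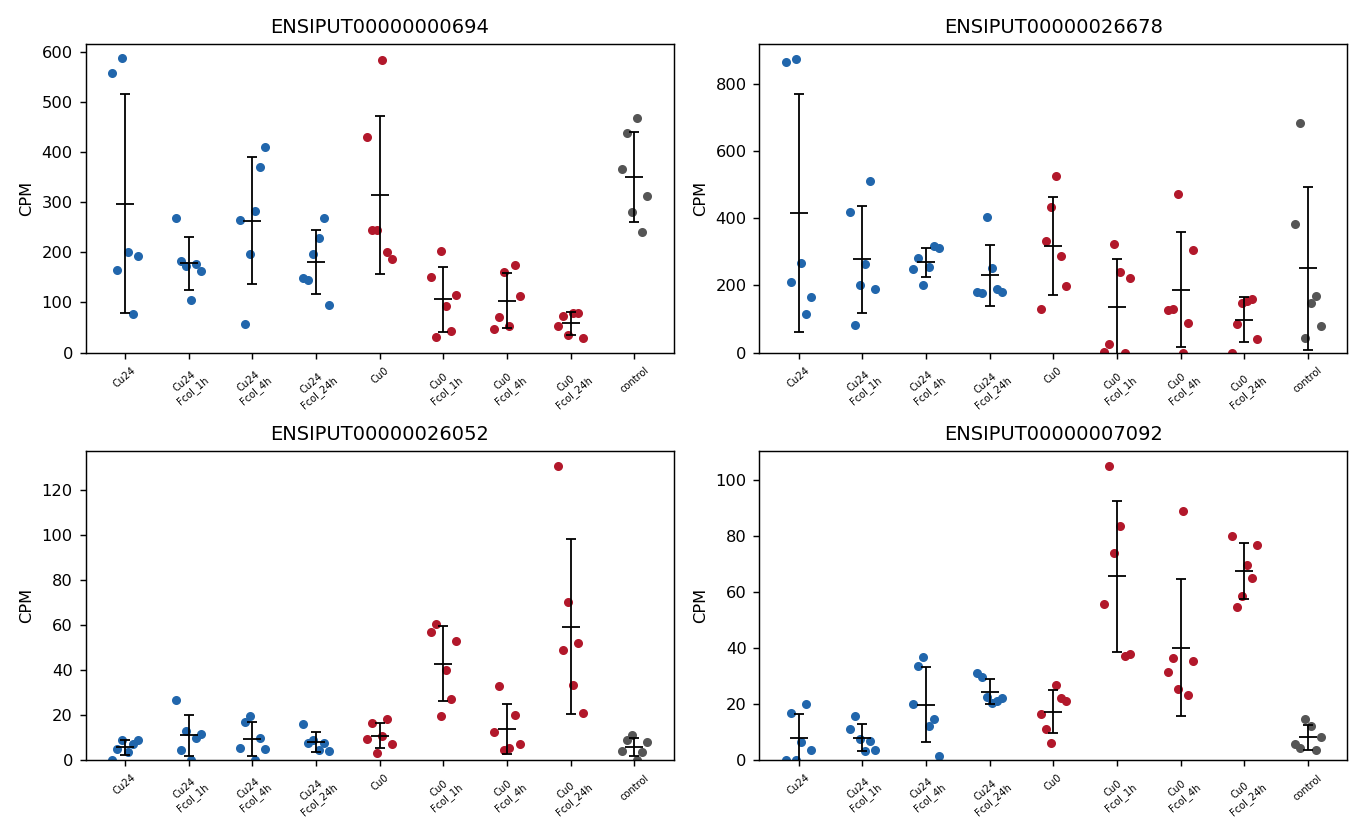
CPM of the 4 transcripts given by ID in each of the 54 fish, with 6 points per group and the mean ± SD as bars, the Cu24 schedule in blue, the Cu0 schedule in red and control in grey. ENSIPUT00000007092 reached 104.9 CPM in Cu0_Fcol_1h and at most 15.72 CPM in Cu24_Fcol_1h, and ENSIPUT00000000694 was at or under 80.01 CPM in every Cu0_Fcol_24h fish and at or above 240.3 CPM in every control fish.

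Outside these 4, the members called in the tested comparisons were looked at after their values had been seen. The ninth of the 14 by ratio was the most abundant of them in control, at 680 ± 260 CPM (SD, n = 6). Its means were 497, 411, 354 and 181 CPM through Cu24, Cu24_Fcol_1h, Cu24_Fcol_4h and Cu24_Fcol_24h, and 221, 56.4, 74.8 and 76.8 CPM through Cu0, Cu0_Fcol_1h, Cu0_Fcol_4h and Cu0_Fcol_24h. The Cu24 mean was raised by its highest fish, with 185.9, 251.6 and 1637 CPM as lowest, median and highest (SD 565). At 1 h the fish were at 218, 392.9 and 743.3 CPM in Cu24_Fcol_1h and at 42.1, 51.9 and 78.4 CPM in Cu0_Fcol_1h (lowest, median, highest), and at 4 h at 155.3, 304.5 and 561.9 CPM in Cu24_Fcol_4h and 6.82, 81.4 and 127.1 CPM in Cu0_Fcol_4h. The ranges were apart at both times, with log2 fold changes of 2.84 at 1 h (SE 0.30, edgeR FDR 6.76e-05) and 2.18 at 4 h (SE 0.38, edgeR FDR 0.00179). Both calls were kept in all 19 alternative fits.

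The seventh of the 14 was the one member called as lower in Cu0 than in control. It was at 2.72, 14.5 and 24.2 CPM in Cu0 and at 47.7, 99.4 and 117.4 CPM in control (lowest, median, highest), a log2 fold change of -2.48 (SE 0.39, edgeR FDR 0.00302) that was kept in all 20 alternative fits. In the Cu0 schedule it stayed low, with means of 7.41 CPM at 1 h, 8.26 CPM at 4 h and 6.85 CPM at 24 h. In the Cu24 schedule it was at 44.2 CPM without challenge, 46.9 at 1 h, 46.6 at 4 h and 20.7 at 24 h. The log2 fold change between the schedules was 2.65 at 1 h (SE 0.57, edgeR FDR 0.00475) and 2.47 at 4 h (SE 0.42, edgeR FDR 0.00169). With detected transcripts as a covariate the log2 fold change at 1 h was 2.50 and the FDR 0.157.

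The twelfth of the 14 was also a DEG at both times, with log2 fold changes of 1.18 at 1 h (SE 0.37, edgeR FDR 0.0335) and 1.13 at 4 h (SE 0.28, edgeR FDR 0.0164). Means were 194 CPM in Cu24_Fcol_1h and 83.1 CPM in Cu0_Fcol_1h, then 136 CPM in Cu24_Fcol_4h and 61.1 CPM in Cu0_Fcol_4h, with 184 CPM in control. The call at 1 h was lost without any 1 of Cu24_Fcol_1h replicates 1, 2 and 4 and Cu0_Fcol_1h replicates 5 and 6, and with the covariate the log2 fold change was 0.16. The call at 4 h was lost without Cu24_Fcol_4h replicate 1. The thirteenth of the 14 was called as higher in Cu0 than in control, at 13.9 to 195.6 CPM in Cu0 and 6.05 to 36.8 CPM in control (log2 fold change 2.06, SE 0.53, edgeR FDR 0.0452). Of the 12 omissions of 1 fish this call was kept only without Cu0 replicate 5 and without Cu0 replicate 6. It was also lost in the fit with replicate number as a block and with edgeR's older quasi-likelihood method.

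Some members changed sides between the earlier samplings and 24 h. The first of the 31 by ratio was at 0, 0 and 7.47 CPM in Cu24_Fcol_24h (lowest, median, highest), where 4 of 6 fish were at 0 and the group held 7 effective counts in all, and at 8.07, 25.1 and 54.3 CPM in Cu0_Fcol_24h. Before that it was higher in the Cu24 schedule. At 1 h the means were 188.5 CPM in Cu24_Fcol_1h and 29.8 CPM in Cu0_Fcol_1h (log2 fold change 2.64, SE 0.56, edgeR FDR 0.00426), and at 4 h they were 344.4 CPM in Cu24_Fcol_4h and 51.5 CPM in Cu0_Fcol_4h (2.76, SE 0.53, edgeR FDR 0.00349). Unchallenged fish averaged 431 ± 225 CPM in Cu24, 94.3 ± 113 CPM in Cu0 and 282 ± 138 CPM in control. Both 24 h groups were below every control fish, whose lowest value was 56.0 CPM. With the covariate the log2 fold change at 1 h was 2.94 and the FDR 0.0827, while the call at 4 h was kept in all 19 alternative fits.

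The nineteenth of the 31 was also higher in the Cu24 schedule at 1 h and lower at 24 h. Its fish were at 277.1, 371.4 and 509.8 CPM in Cu24_Fcol_1h and at 28.5, 148.6 and 198.7 CPM in Cu0_Fcol_1h (lowest, median, highest), a log2 fold change of 1.48 (SE 0.33, edgeR FDR 0.00633). At 24 h the order was turned, with 57.6, 77.5 and 107.5 CPM in Cu24_Fcol_24h and 181.5, 212.1 and 250.5 CPM in Cu0_Fcol_24h. At 4 h the log2 fold change of 0.80 (SE 0.25, edgeR FDR 0.0467) was under the fold required of a DEG. Control fish were at 240.5 to 383.5 CPM, above every Cu24_Fcol_24h fish and overlapping Cu0_Fcol_24h. With the covariate the log2 fold change at 1 h was 1.94 and the FDR 0.0718.

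The twentieth of the 31 changed sides more than once. It was lower in Cu24_Fcol_1h at 25.6 ± 12.6 CPM than in Cu0_Fcol_1h at 133 ± 82.9 CPM (log2 fold change -2.42, SE 0.49, edgeR FDR 0.00337), higher in Cu24_Fcol_4h at 435 ± 193 CPM than in Cu0_Fcol_4h at 164 ± 92.7 CPM (1.39, SE 0.34, edgeR FDR 0.014), and again lower at 24 h, at 76.4 ± 21.4 CPM in Cu24_Fcol_24h and 192 ± 37.6 CPM in Cu0_Fcol_24h (SD, n = 6 each). It was also called as higher in Cu0, at 13.9, 202.6 and 823.2 CPM, than in control, at 1.92, 26.4 and 56.8 CPM (log2 fold change 3.49, SE 0.80, edgeR FDR 0.0253). That last call was lost without any 1 of Cu0 replicate 2 and control replicates 1, 2, 4, 5 and 6. The call at 1 h was lost with the covariate (log2 fold change -3.13, FDR 0.0542) and the call at 4 h in the fit of all 9 groups (FDR 0.071).

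The 2 remaining calls were at 1 h. The sixth of the 14 was lower in Cu24_Fcol_1h, at 0, 5.87 and 12.9 CPM, than in Cu0_Fcol_1h, at 17.1, 30.2 and 50.2 CPM (lowest, median, highest), with a log2 fold change of -2.44 (SE 0.48, edgeR FDR 0.00225) that was kept in all 19 alternative fits. At 24 h it was on the other side, at 9.77 to 34.6 CPM in Cu24_Fcol_24h and 4.44 to 8.42 CPM in Cu0_Fcol_24h. The eighth of the 31 was on its 24 h side at 1 h, with 1.38, 9.05 and 22.5 CPM in Cu24_Fcol_1h and 13.1, 29.4 and 39.9 CPM in Cu0_Fcol_1h (log2 fold change -1.71, SE 0.48, edgeR FDR 0.0197). At 4 h its means were the other way round, at 27.6 CPM in Cu24_Fcol_4h and 9.65 CPM in Cu0_Fcol_4h. Its call at 1 h was lost without Cu24_Fcol_1h replicate 3, in the fit of all 9 groups and with the covariate (log2 fold change -1.70, FDR 0.28).

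In all, 12 of the 30 members tested in at least 1 of the 5 comparisons were DEGs in at least 1 (16.6% of all transcripts so tested), 7 of them in 1, 3 in 2 and 2 in 3. Between the schedules, 5 of the 24 members tested at both 1 h and 4 h were called at both (4.15% of all transcripts so tested). Of these 5, 1 had opposite directions at the 2 times, as had 4 of the 272 transcripts called at both.

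Within groups, members of a set were only weakly related from fish to fish at the median. Across the 54 fish, with each group's mean taken away from log2(CPM + 1), Pearson's r had a median of 0.04 over the 91 pairs within the 14 (-0.50 to 0.43) and 0.06 over the 465 pairs within the 31 (-0.49 to 0.57), against -0.02 over the 434 pairs between the sets (-0.54 to 0.52). All pairs share the same libraries and depth, and many of the counts are low.

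**Figure D5:**
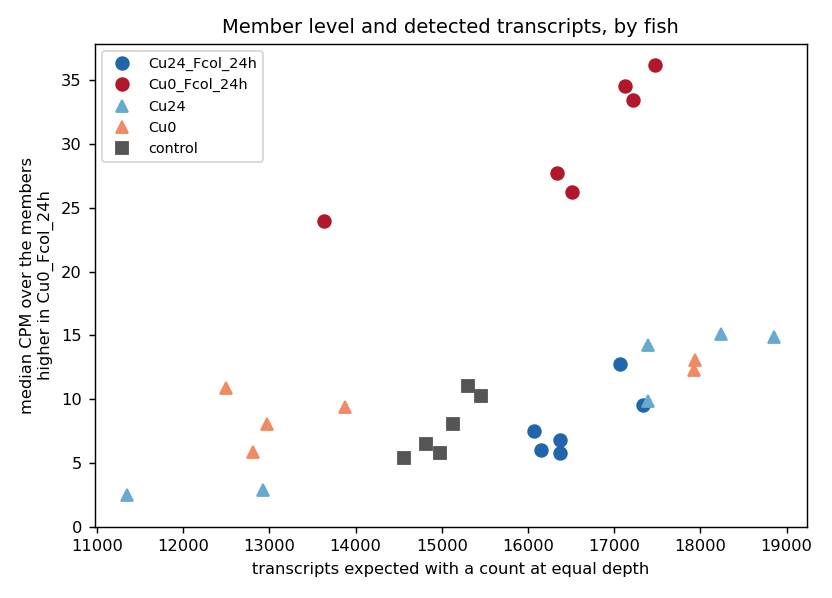
Median CPM over the 31 members higher in Cu0_Fcol_24h against the number of transcripts expected with a count at equal depth, 1 point per fish, for the 24 h groups, the unchallenged copper groups and control. The Cu0_Fcol_24h fish lay at 23.99 CPM or more and the Cu24_Fcol_24h fish at 12.77 CPM or less, as the choice of the members requires, and Cu24 replicates 1 and 3 were the lowest of all fish shown at 2.504 and 2.897 CPM.

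In unchallenged Cu24 fish the level of the 31 members moved with the number of detected transcripts, as did the median over all transcripts. Cu24 replicates 1 and 3, with the fewest detected transcripts, had medians of 2.50 and 2.90 CPM over the 31 members, against 9.87 to 15.1 CPM in the other 4 Cu24 fish. Over the 14 members the same 2 fish were the highest of Cu24, at 37.6 and 49.2 CPM against 27.0 to 34.2 CPM in the other 4. Over all 13672 transcripts the medians of these 2 fish were 7.51 and 8.69 CPM, against 15.1 to 16.9 CPM in the other 4. In Cu0_Fcol_24h the fish with the fewest detected transcripts, replicate 6, had the lowest median over the 31, at 23.99 CPM. It also had the lowest median over all transcripts, at 12.8 CPM against 14.4 to 16 CPM in the other 5. Over the 14 members it was at 13.6 CPM, inside the group's range of 7.77 to 16.7 CPM. The part of the number of detected transcripts in the 24 h levels was not tested.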

How the data were processed

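Per the labels, total gill RNA was poly(A)-selected for directional libraries, and the submitters' processing notes name Trim Galore 0.5.0, Bowtie2 2.3.4.3, eXpress 1.5.1 and DESeq2 1.24.0. The authors deposited, for each fish, the estimated counts per Ensembl transcript that eXpress calls effective counts, rounded to whole numbers. This program divides reads that fit several transcripts, so values of isoforms and of near-identical genes are uncertain. The sources used here do not name the annotation release. The study's methods describe another route, with STAR alignment and HTSeq counts per gene. They also give more reads per sample than the totals of effective counts used here. Files were joined by ID over 37586 transcripts.

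Transcripts with a count of 10 or more in at least 6 of 54 files were kept, and TMM CPM was computed in edgeR 4.0.16 (R 4.3.3) on the kept transcripts. Comparisons used glmQLFit and glmQLFTest on 12 fish each with filterByExpr, TMM and Benjamini-Hochberg adjustment over all tested transcripts. The newer quasi-likelihood method was taken because the earlier analysis of these data used it, after calls under both methods had been seen. SEs are approximate, from the log2 fold change and its F statistic. DESeq2 1.42.0 and the other alternatives are given in the closing section. Tests were tried on simulated data. The transcripts given by ID are the 2 largest ratios per direction with a higher mean of 50 CPM or more. Members and rules were chosen with earlier results of these data known. No pair of same-group libraries agreed within sampling noise (smallest chi-square per transcript 5.99). For low transcripts, counting error adds to the spread between fish.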

Additional observations from a re-analysis of the deposited data

Results flagged for a closer look

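For the 4 transcripts given by ID and the set medians, 54 groups of 6 fish were searched for a highest or lowest fish far from the rest, and chance alone gives about 1 such fish in 20 groups. In Cu24_Fcol_24h, replicate 3 had 404.3 CPM of ENSIPUT00000026678 and the next fish 250.6 CPM, so the gap made up 0.673 of the range of the group. In Cu0_Fcol_4h, replicate 4 had 88.7 CPM of ENSIPUT00000007092 and the next fish 36.4 CPM, a gap of 0.798 of the range. That fish also had the fewest detected transcripts of its group, 13392. ENSIPUT00000026678 was called in no comparison, and ENSIPUT00000007092 was not a DEG at 4 h.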

How the results depend on the processing

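The set held 45 transcripts, and 46 with DESeq2 size factors (43 shared), 45 with library totals alone (36 shared), 46 without the count filter, 34 with 5 added to the mean and 44 with totals over all transcripts. Leaving out 1 fish relaxes the condition on overlap and gave 58 to 82 transcripts.

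Percentages in this paragraph are shares called over all transcripts tested. Members called in Cu24 against Cu0 numbered 0 (0.201%). They numbered 1 without the count filter (0.492%), 5 with all 9 groups in 1 fit (3.46%) and 1 with replicate block (0.445%). With detected transcripts as covariate 1 was called (1.36%), without 2 Cu0 fish 6 (12.1%), and without 1 fish 0 to 1 (1 without Cu0 replicate 5, 0.677%). The omission of 2 Cu0 fish was chosen after seeing the data. So were the older quasi-likelihood method, the omission of 2 Cu24 fish and totals over all transcripts. At 1 h they numbered 10 (14.4%), and 3 with the covariate (1.02%) and 9 to 10 without 1 fish (10.9% to 17.3%). At 4 h they numbered 6 (8.1%), and 4 to 7 over all alternatives (3.81% to 10%). In Cu0 against control they numbered 3 (3.14%), and 6 without the count filter (1.47%). With the covariate 5 were called (7.77%), and without 2 Cu0 fish 7 (13.6%). Omitting 1 fish gave 1 to 5. The number was 1 without Cu0 replicate 2 or control replicate 1, 4, 5 or 6 (at most 1.65%). It was 5 without Cu0 replicate 5 (5.49%). In Cu24 against control they numbered 0 (0.27%), and 1 without the count filter (0.94%) and 8 without 2 Cu24 fish (25.6%). Without 1 fish they numbered 0 to 1 (1 without Cu24 replicate 3, 3.95%). The causes were not tested. Over all transcripts, the older method called 0 in Cu24 against Cu0, where 14 were called, DESeq2 56, the covariate 95 and all 9 groups together 439. At 1 h 1002 were called, and 71 with the covariate, 60 of them shared.

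Same-numbered fish did not pair the samples. The correlation of their deviations passed 0.1 in 4, 0, 0, 1 and 0 of 6 pairs in the 5 comparisons, and 0 to 1 of the fish correlated best with its own number. The replicate block gave 10 members at 1 h (13.3% called over all transcripts), 6 at 4 h (6.24%) and 3 in Cu0 against control (1.13%). In Cu0 against control it called 58 of all transcripts and not 161.

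For single transcripts, the direction turned only for differences that were no DEGs. ENSIPUT00000000694 in Cu24 against Cu0 (-0.05) was at 0.068 with the covariate and -0.415 to 0.186 without 1 fish. Without 2 Cu24 fish it was at -1.03 and no DEG (edgeR FDR 0.157). In Cu0 against control (-0.04) it was at 0.117 without 2 Cu0 fish and -0.29 to 0.046 without 1 fish. In Cu24 against control (-0.16) it was at -0.52 to 0.029 without 1 fish, and it was a DEG at -1.10 without 2 Cu24 fish (edgeR FDR 0.00691). Without these 2 fish ENSIPUT00000026678 was at -0.79 in Cu24 against Cu0, where it was 0.42 with all fish, and at -0.35 in Cu24 against control, where it was 0.80 with all fish. Of the other values, 517 kept direction and call, and 43 kept direction and lost the call. With 6 fish a group and totals of at most 1190864 effective counts, 17 to 27 members per comparison were too low to test.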
